A study of Homo sapiens with 6 samples.

Results

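The 10 genes described here comprise those of the transcriptional co-activators YAP (YAP1) and TAZ (WWTR1), the DNA-binding factors TEAD1 and TEAD4 through which they act, and 6 genes known as their transcriptional targets: CCN1, CCN2, ANKRD1, AMOTL1, AMOTL2 and LATS2. The genes were given as a list and matched on the gene symbol of the probe annotation. All 10 of 10 were measured, each by 1 probe set with 1 symbol, among 18417 genes in all. Their mRNA was profiled in MDA-MB-231, an established human cell line of triple negative breast cancer, the subtype that lacks estrogen receptor, progesterone receptor and amplified HER2. The series holds 3 samples labelled only as control and 3 samples exposed to EC-70124 at 500 nM for 24 h, with 1 Affymetrix Human Gene ST array each. EC-70124 is an indolocarbazole that inhibits several protein kinases. The samples come from 1 cell line, at a single dose and a single time, and the labels name no solvent for the controls. The study's methods call the samples independent.

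YAP and TAZ carry signals of cell contact, cell shape and matrix stiffness to the nucleus. When the Hippo kinases are active, MST kinases (STK3 and STK4) phosphorylate LATS1 and LATS2, and LATS kinases phosphorylate YAP and TAZ, which then stay in the cytoplasm or are degraded. When the cascade is inactive, YAP and TAZ enter the nucleus, bind TEAD factors and raise transcription of matricellular, cytoskeletal and growth genes, among them LATS2 and AMOTL2, whose products restrain YAP in return. This control acts largely on proteins, and mRNA arrays do not measure phosphorylation or localization.

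The promoters of CCN2 and ANKRD1 are shown because both genes are classical YAP/TEAD targets and they changed in opposite directions. TEAD factors recognize the core GGAATG, read as CATTCC on the other strand. It was searched on both strands in the RefSeq promoters of GRCh38.p14, each with 250 bases before and 50 bases after a transcription start, and 7 of the 10 genes have an entry (CCN1, TEAD1 and TEAD4 do not). The 250 bases before the start of CCN2 (chr6:131951373-131951622, minus strand) and of ANKRD1 (chr10:90921088-90921337, minus strand) are given from 5′ to 3′ along the gene, with the core in capitals:
CCN2: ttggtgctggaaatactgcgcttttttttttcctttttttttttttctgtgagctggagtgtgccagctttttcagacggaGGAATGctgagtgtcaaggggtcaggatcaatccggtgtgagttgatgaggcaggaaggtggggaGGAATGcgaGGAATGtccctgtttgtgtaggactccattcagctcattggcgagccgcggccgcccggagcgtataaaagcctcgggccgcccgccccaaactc
ANKRD1: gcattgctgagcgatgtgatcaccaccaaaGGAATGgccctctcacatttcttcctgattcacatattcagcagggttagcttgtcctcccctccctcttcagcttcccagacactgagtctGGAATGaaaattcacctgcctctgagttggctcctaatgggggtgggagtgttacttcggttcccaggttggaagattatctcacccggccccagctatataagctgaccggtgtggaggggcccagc
The core was present 3 times before CCN2, at -169, -104 and -95 from the start, and 2 times before ANKRD1, at -220 and -128. Of all 35116 promoters in the table, 14.0% held at least 1 match, 1.37% at least 2 and 0.128% at least 3. YAP1 had 1 match at -162 (chr11:102110265-102110310, plus strand), and the second listed start of AMOTL2 had 1 in the other orientation at -69 (chr3:134374491-134374536, minus strand). Both are shown with 20 bases on each side:
YAP1: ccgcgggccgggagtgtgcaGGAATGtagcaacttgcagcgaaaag
AMOTL2: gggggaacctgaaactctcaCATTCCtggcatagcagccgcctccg
LATS2 had 1 match, at 10 bases after its start. No match lay in the windows of WWTR1 (both listed starts), AMOTL1 or the first listed start of AMOTL2. At least 1 core was thus found for 5 of 7 genes, against 16.7% of the 27305 genes in the table. It was also found for 7 of 18 genes (38.9%) of a list of serum response factor and actin genes described below. The core is thus not particular to the YAP/TEAD genes. These letters describe the windows only, and binding was not measured.

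**Figure D1:**
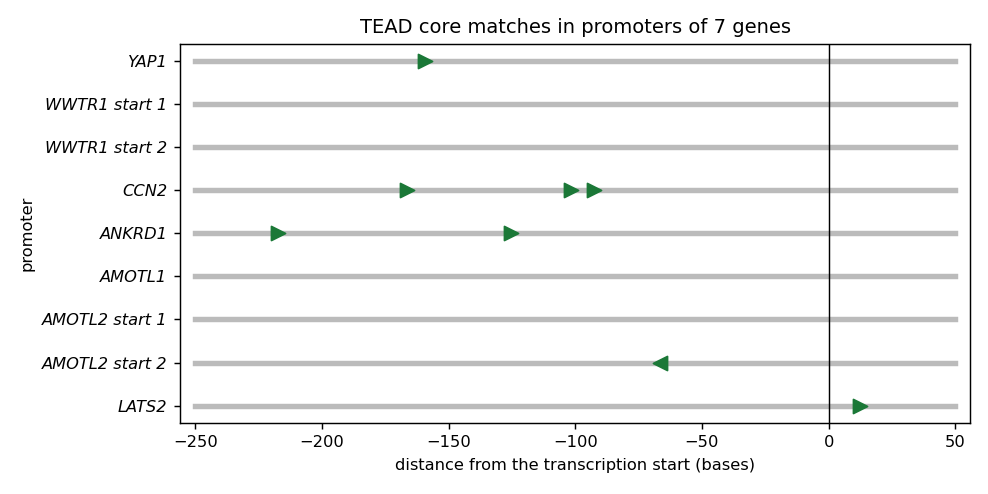
Position of the TEAD core in the RefSeq promoter windows (gray bars, from 250 bases before to 50 bases after the start) of 7 genes. The x axis is the distance from the transcription start in bases, each row is 1 listed start, and triangles point in the direction in which the core reads. CCN2 has 3 matches and ANKRD1 has 2, all before the start.

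Values are linear intensities (model-based expression index, MBEI), and the median probe set of an array had 437 to 444 in the control arrays and 451 to 460.1 in the treated arrays. VIM and CAV1, mesenchymal and caveolar genes typical of this line, were bright (control means of 13827 and 6581), whereas the receptor genes ESR1 and PGR and the epithelial cadherin CDH1 were dim (225, 166 and 156). The epithelial keratin genes KRT8 and KRT18 were bright too (6350 and 4776), and EPCAM was at 381. ERBB2, which encodes HER2, had a control mean of 1486. Of 9 leukocyte and endothelial markers measured, 0 rose and 1 fell in limma, beside 19.7% and 14.8% of all genes. At an unadjusted p under 0.05 the counts were 1 and 1, the rise being that of ITGAM (log2 fold change 0.26, limma adjusted p = 0.101). None was listed at 0. The marker that fell was CD68, a lysosomal protein that other cells also make. It was bright (6255 to 9301). No marker fell without control replicate 2, without control replicate 3 or in a gene-by-gene test with unequal variances. With the median over probe sets 2 fell, and without control replicate 2 there was 1 rise. CD14, ITGAM and KDR lay above the median probe set (control means of 536, 563 and 507), and the leukocyte marker PTPRC was the dimmest, at 78.6 to 105. The summed level of the 9 markers was 11507 to 12027 in control and 8991 to 10446 in treated arrays, and that of the 8 markers other than CD68 was 2521 to 2740 and 2689 to 2736. Of 11 breast and line markers, 3 rose and 2 fell in limma, beside 19.7% and 14.8% of all genes. Their log2 fold changes were 0.77 for the keratin KRT18, 0.20 for KRT8, 0.19 for CDH1, -0.39 for EGFR and -0.29 for CD44. The rises of KRT8 and CDH1 were close to the threshold (limma adjusted p = 0.0405 and 0.0490). The number of these markers that rose was 2 after quantile normalization, 1 with cyclic loess and 1 in a gene-by-gene test with unequal variances. With the median over probe sets it was 4. The part of these shifts in the results was not tested. Each array was scaled to the others, so that fewer cells and less RNA per cell cannot be told apart.

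The YAP/TEAD genes moved in both directions. The 3 treated and 3 control arrays entered a limma fit (moderated test) of log2 intensities, and p-values were adjusted over all 18417 genes with the Benjamini-Hochberg procedure. ANKRD1 and AMOTL2 rose, WWTR1, CCN1 and CCN2 fell, and YAP1, TEAD1, TEAD4, AMOTL1 and LATS2 did not pass an adjusted p of 0.05. That makes 5 of 10 genes called, beside 34.5% of all genes (19.7% up-regulated and 14.8% down-regulated). All 10 genes were brighter than most, at percentiles of mean level from 63.5 (AMOTL1) to 99.8 (CCN1), and bright genes were called more often. Without the 30% dimmest genes, 3446 of 12892 genes rose and 2702 fell, beside 3 and 3 of the 10. After quantile normalization of the same arrays, 46.9% of all calls were rises, against 57.2% with the deposited normalization, and the counts for the 10 genes stayed at 2 and 3. The median log2 fold change of the 10 genes was 0.05, beside -0.0045 over all genes, and the range was from -0.60 to 0.67. None of the 10 reached a 2-fold change.

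**Figure D2:**
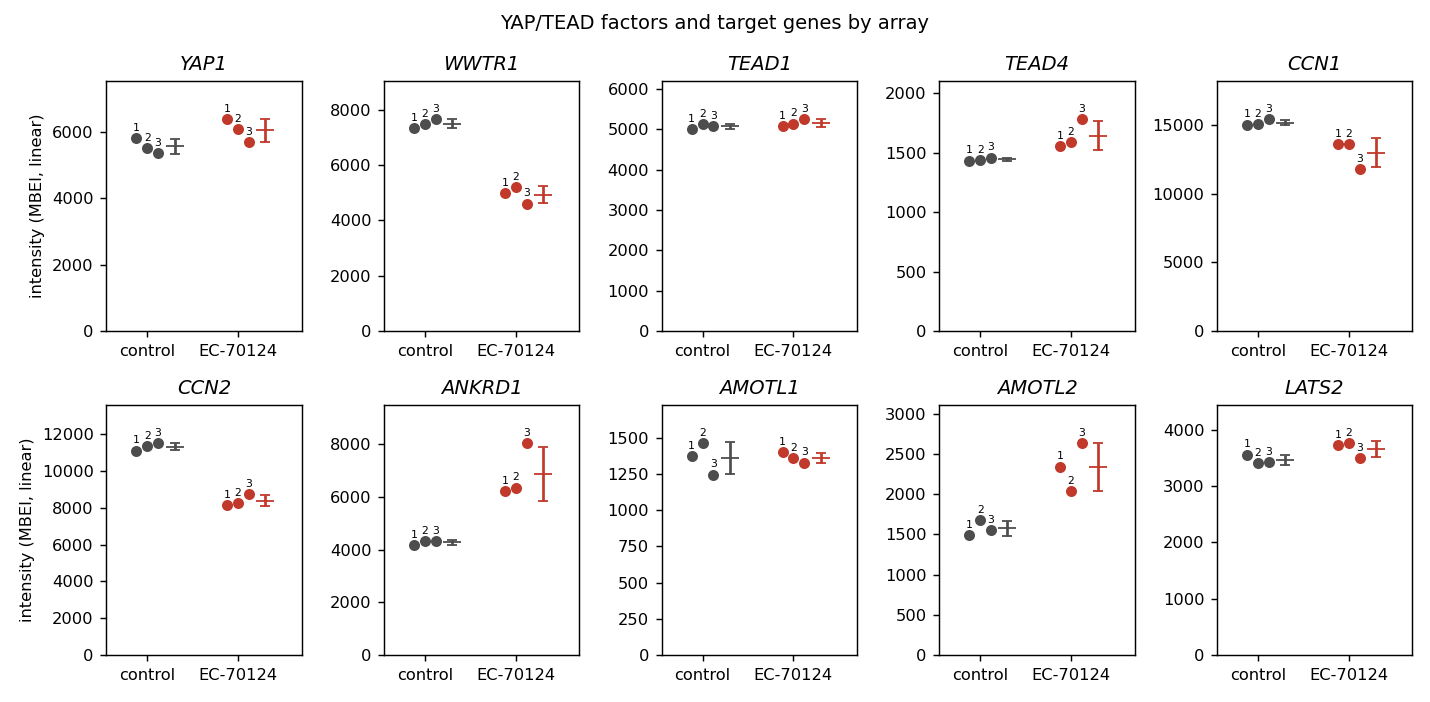
Intensity (MBEI, linear, y axis from 0, a scale of its own in each panel) of the 10 genes in the 3 control arrays (gray) and the 3 EC-70124 arrays (red), with the replicate number above each point and the mean ± SD beside the points. The 2 groups do not overlap for WWTR1, TEAD4, CCN1, CCN2, ANKRD1 and AMOTL2.

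Of the co-activator genes, WWTR1 fell and YAP1 did not pass the test. YAP1 had intensities of 5818, 5517 and 5358 in control replicates 1, 2 and 3 and of 6384, 6094 and 5696 in the treated replicates. The lowest treated array lay below the highest control array, so the groups overlapped. The log2 fold change was 0.12 (95% interval -0.03 to 0.27, standard error (SE) 0.06, limma adjusted p = 0.194). WWTR1, the gene of TAZ, was at 7328, 7483 and 7655 in the control arrays and at 4974, 5207 and 4607 in the treated arrays. All 3 treated arrays were lower than all 3 control arrays. WWTR1 fell 1.52-fold (log2 fold change -0.60 with a standard error of 0.06, limma adjusted p = 0.000174), lower in 3 of 3 treated samples. The response of YAP1 exceeded that of WWTR1 by 0.73 on the log2 scale, with an exact permutation p of 0.1 over the arrays (2-sided), the smallest p that 3 against 3 samples can give. Over the 4 paralog pairs compared, the adjusted p was 0.133.

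Neither TEAD gene of the list passed the test. TEAD1 had control intensities of 5010, 5123 and 5072 and treated intensities of 5073, 5139 and 5246. The groups overlapped, and the log2 fold change was 0.02 (95% interval -0.09 to 0.14, adjusted p = 0.766 from limma). With cyclic loess normalization its sign turned. TEAD4, a paralog of TEAD1, was at 1433, 1438 and 1458 in control and at 1556, 1589 and 1780 in treated arrays. Every treated array was above every control array, with replicate 3 the highest. Its log2 fold change was 0.18 (95% interval 0.03 to 0.33, adjusted p = 0.0632 from limma), and it passed only when the 30% dimmest genes were left out (adjusted p = 0.0404), in a range of 0.0404 to 0.290 over 14 alternatives. TEAD1 minus TEAD4 gave a difference in response of -0.16 (exact permutation p = 0.1, adjusted p = 0.133 over the 4 pairs).

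CCN1 and CCN2 encode secreted matricellular proteins, known as CYR61 and CTGF, and are the targets most often read as a measure of YAP activity. CCN2 was at 11126, 11365 and 11543 in the control arrays and at 8161, 8265 and 8736 in the treated arrays. The groups were well separated. CCN2 fell 1.35-fold (log2 fold change -0.44 with a standard error of 0.05, limma adjusted p = 0.000468), lower in 3 of 3 treated samples. CCN1 was at 15028, 15094 and 15427 in control and at 13601, 13597 and 11792 in treated arrays. Here, too, the groups did not overlap, and treated replicate 3 lay apart below the other two. Its log2 fold change was -0.23 (SE 0.07, limma adjusted p = 0.0355), a fall of 1.17-fold. This call was lost without control replicate 1, 2 or 3 (adjusted p of 0.0880, 0.0864 and 0.0978 from limma), with the replicate number as a block (0.0551) and with a test made gene by gene with unequal variances (0.189). Without treated replicate 3 the log2 fold change was -0.16 (adjusted p = 0.0404). CCN1 minus CCN2 gave a difference of 0.21, with an exact permutation p of 0.2 (adjusted p = 0.200 over the 4 pairs).

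ANKRD1, a nuclear ankyrin repeat protein and co-regulator of transcription, moved the other way. Its intensities were 4161, 4332 and 4323 in the control arrays and 6211, 6347 and 8045 in the treated arrays. All treated arrays were above all control arrays, and replicate 3 was the highest by a wide gap. ANKRD1 rose 1.60-fold, or 0.67 on the log2 scale (SE 0.10, limma adjusted p = 0.00106), higher in 3 of 3 treated samples. Without treated replicate 3 it was 0.56 (adjusted p = 0.000257). In the promoters printed above, both the gene that fell, CCN2, and the gene that rose, ANKRD1, hold more than 1 TEAD core. ANKRD1 also holds 1 match to TGANTCA, a loosened form of the AP-1 motif that allows any middle base, at -195 and apart from both cores. The match reads TGATTCA, whereas the strict AP-1 motif has C or G in the middle, so it is not a strict match. The loosened pattern is its own reverse complement and is present in 7.71% of all promoters.

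AMOTL1 and AMOTL2 belong to the angiomotin family, scaffolds of cell junctions that bind YAP and hold it outside the nucleus. AMOTL1 was at 1375, 1464 and 1245 in control and at 1398, 1357 and 1327 in treated arrays, and the treated values lay within the control range. The log2 fold change was 0.00 (95% interval -0.16 to 0.16, adjusted p = 0.987 from limma), and its sign turned after quantile normalization and cyclic loess. AMOTL2 was at 1495, 1680 and 1552 in control and at 2343, 2043 and 2639 in treated arrays, without overlap. It rose 1.48-fold, or 0.57 on the log2 scale (SE 0.10, limma adjusted p = 0.00239), higher in 3 of 3 treated samples. The response of AMOTL1 was lower than that of AMOTL2 by a difference of -0.56 (exact permutation p = 0.1, adjusted p = 0.133 over the 4 pairs). LATS2, the kinase that phosphorylates YAP and is itself a target, was at 3561, 3403 and 3425 in control and at 3725, 3768 and 3497 in treated arrays. Treated replicate 3 lay within the control range. The log2 fold change of LATS2 was 0.08 (95% interval -0.05 to 0.21, adjusted p = 0.327 from limma).

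**Figure D3:**
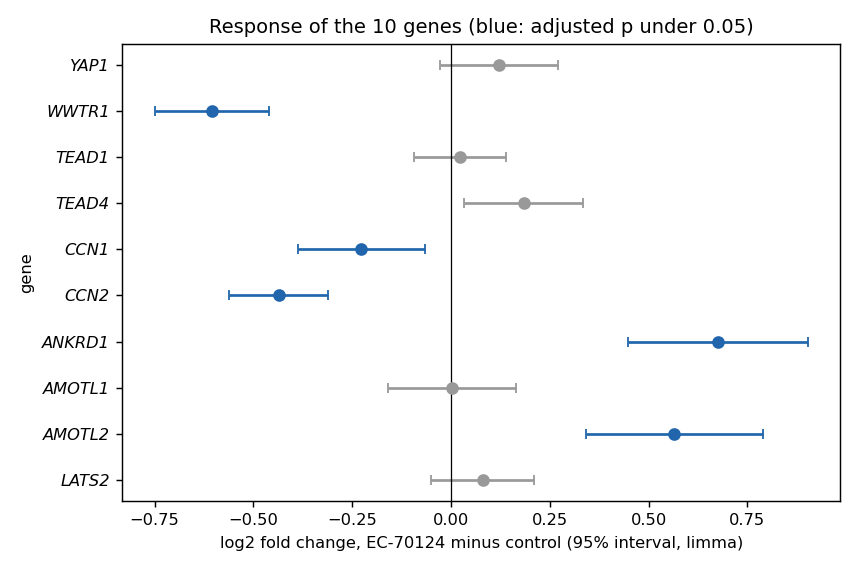
Log2 fold change (EC-70124 minus control, 3 arrays per group, x axis) of each of the 10 genes (y axis) with its 95% interval from limma, blue where the adjusted p is under 0.05 and gray otherwise. The values run from -0.60 for WWTR1 to 0.67 for ANKRD1, and the intervals of YAP1, TEAD1, AMOTL1 and LATS2 include 0.

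The 3 treated arrays did not contribute alike. Treated replicate 3 was the array farthest from its group mean for 8 of the 10 genes, beside 50.5% of all genes. Among the control arrays, replicate 1 was the farthest for 5 of the 10 genes and replicate 3 for 4, beside 26.9% and 40.4% of all genes. Without treated replicate 3, the calls were still 2 up-regulated and 3 down-regulated. With the unequal-variance test, which shares no spread between genes, the 10 genes gave 0 rises and 2 falls after Benjamini-Hochberg adjustment, those of WWTR1 and CCN2, whereas at an unadjusted p under 0.05 these counts were 2 and 2. With the same test ANKRD1 had an adjusted p of 0.0971 and AMOTL2 of 0.0789. Groups that did not overlap were seen for 6 of the 10 genes, beside 47.6% of all genes. Groups that did not overlap and were lower after treatment were seen for 3 of the 10, beside 22.0% of all genes.

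The other TEAD genes and the vestigial-like (VGLL) proteins, which bind TEADs at the surface used by YAP, had log2 fold changes below 0 in all 6 cases, beside 9401 of 18417 genes. VGLL1 and VGLL2 were dim (control means of 245 and 212), and their groups overlapped, as did those of TEAD3. Among the 6 genes, 0 rose and 1 fell in limma, beside 19.7% and 14.8% of all genes, with 0 and 1 at an unadjusted p under 0.05. Their median log2 fold change was -0.16, beside -0.0045 over all genes. TEAD2 fell, with a log2 fold change of -0.46 (limma adjusted p = 0.00107), a call lost with the unequal-variance test (0.0715). TEAD3 had -0.19 (adjusted p = 0.143), and passed after quantile normalization (0.0320) and without treated replicate 1 (0.0481).

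In the Hippo cascade upstream of YAP, genes moved in both directions. Of 28 kinases, scaffolds and regulators outside the 10 genes, 9 rose and 6 fell, beside 19.7% and 14.8% of all genes, with a median log2 fold change of 0.05. Of the 2 MST kinase genes, STK3 fell (log2 fold change -0.53, standard error 0.08, adjusted p = 0.00179 from limma), whereas STK4 had 0.13 (adjusted p = 0.0792) and passed in 3 of 14 alternatives. The call of STK3 was lost with the unequal-variance test (0.0674), as were those of RASSF1 (0.0614) and MARK2 (0.0634). LATS1 rose, from 1991, 2087 and 2112 in the control arrays to 3247, 3124 and 2939 in the treated arrays, or 0.59 on the log2 scale (SE 0.06, limma adjusted p = 0.000168). LATS1 and LATS2 thus had log2 fold changes of 0.59 and 0.08, and their difference was not tested. NF2, which encodes merlin and brings LATS to the membrane, had 0.12 (adjusted p = 0.255).
The largest rise was that of AJUBA, a LIM domain protein that binds LATS kinases and limits their activity. It went from 2468, 2501 and 2404 to 6375, 6287 and 6246, or 1.36 on the log2 scale (SE 0.05, limma adjusted p = 3.67e-06). LIMD1, a LIM protein of the same family, moved the other way, with 2815, 2947 and 2878 in control and 1685, 1778 and 1922 in treated arrays and a log2 fold change of -0.68 (adjusted p = 0.000109). Other rises were those of TAOK2, a kinase that activates MST kinases (0.92), the scaffold RASSF1 (0.46) and the polarity kinase MARK2 (0.37). MAP4K4, which can phosphorylate LATS in place of MST, fell (-0.51), as did the LATS co-activator MOB1B (-0.30) and the atypical cadherin FAT4 (-0.27). The call of MOB1B was lost without control replicate 1 or 2 (adjusted p of 0.0674 to 0.0721). The call of FAT4 was lost without any single array but treated replicate 1 (adjusted p of 0.0577 to 0.139), and its log2 fold change was -0.17 without treated replicate 3.

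Among 17 further genes published as targets of YAP and TAZ, 8 fell and 3 rose, beside 14.8% and 19.7% of all genes, and 6 did not pass. Their median log2 fold change was -0.18, beside -0.0045 over all genes. CCDC80, a matrix protein gene, fell from 2366, 2380 and 2374 to 1142, 1164 and 1345, or -0.97 on the log2 scale (SE 0.07, limma adjusted p = 3.73e-05). IGFBP3, which binds insulin-like growth factors, fell by 0.56, the growth factor gene TGFB2 by 0.55, NT5E, the ectonucleotidase CD73, by 0.49 and CRIM1, a transmembrane protein that binds BMPs, by 0.47 on the log2 scale. The 3 that rose were GADD45A, the kinase gene NUAK2 and FJX1. GADD45A, induced by growth arrest and DNA damage, went from 1158, 1164 and 1224 to 4803, 4805 and 4229, or 1.96 on the log2 scale (adjusted p = 2.58e-06). It is also a gene that the study picked out from these samples, so that its direction is not independent evidence. NUAK2 had 0.89 (adjusted p = 9.82e-05) and FJX1 had 0.56 (adjusted p = 0.000810). With the unequal-variance test the calls of IGFBP3 (0.0997) and FJX1 (0.0586) were lost. The core GGAATG was found for 5 of the 12 of these 17 genes with a promoter entry.

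CCN1, CCN2 and ANKRD1 are also known to respond to serum response factor (SRF) and its actin-regulated co-activators, the MRTFs. Of 18 measured genes of the MRTF/SRF and actin list (21 listed), 4 rose and 6 fell, beside 19.7% and 14.8% of all genes, with a median log2 fold change of -0.05. SRF itself had -0.07 (adjusted p = 0.381 from limma), and the co-activator gene MRTFB rose, from 998, 958 and 869 to 1847, 1929 and 1788 (log2 fold change 0.98, adjusted p = 2.81e-05). FILIP1L rose most, with a log2 fold change of 1.76 (adjusted p = 3.77e-06). It was dim in the control arrays, below the median probe set, with means of 245 in control and 828 in treated arrays. The focal adhesion gene ZYX had 0.19 and tropomyosin TPM1 0.21. Genes that fell include the smooth muscle actin gene ACTA2 (-0.69), the actin linker VCL (-0.36), TAGLN2 (-0.34), the myosin heavy chain MYH9 (-0.26) and TPM4 (-0.20). The calls of ZYX and TPM1 were each lost without control replicate 1, without treated replicate 1 and without treated replicate 2, as well as without control replicate 3 (ZYX) or 2 (TPM1), at adjusted p of 0.0753 to 0.0968 and of 0.0946 to 0.129. TPM1 also lost its call after quantile normalization (0.0803), with cyclic loess (0.0698) and with the replicate block (0.0638). ACTA2 had 1078, 1087 and 1054 in control and 747, 829 and 476 in treated arrays, and without treated replicate 3, the lowest, its log2 fold change was -0.45. Its call was lost without control replicate 1 or 2 (0.0570 to 0.0587), and that of TPM4 without control replicate 1, 2 or 3 or treated replicate 1 (0.0528 to 0.0779) with the replicate block (0.0538) and with the median over its probe sets (0.131, log2 fold change -0.13). With the unequal-variance test, the calls of TPM1 (0.127), ACTA2 (0.239), VCL (0.0657), MYH9 (0.0665) and TPM4 (0.0631) were lost. The CArG box, the element SRF binds, was found in none of the 7 YAP/TEAD genes with an entry, in 8 of 18 genes of this list with an entry and in 1.60% of all genes in the promoter table. CCN1 had no entry, and sequence farther than 250 bases before a start was not searched.

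**Figure D4:**
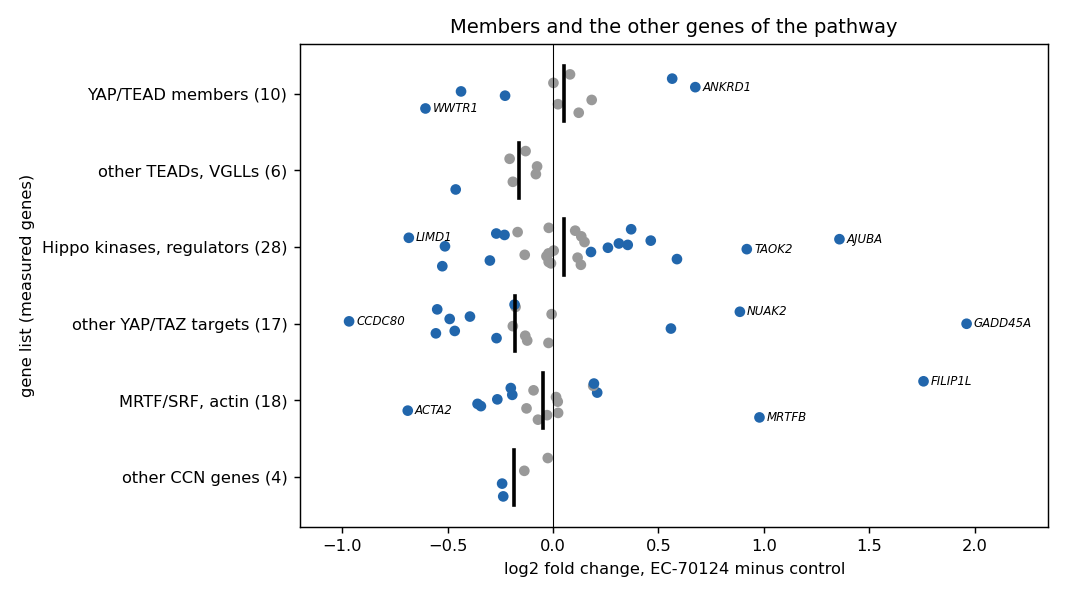
Response to EC-70124 (log2 fold change against control, 3 arrays in each group, x axis) of the measured genes in 6 lists (y axis, with how many were measured). A point stands for 1 gene, in blue if it passed an adjusted p of 0.05 in limma and in gray if not, with vertical spread only for legibility, and black bars mark medians. Medians run from -0.19 for the other CCN genes to 0.05 for the YAP/TEAD and Hippo lists.

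Of the 4 other CCN family genes, 0 rose and 2 fell in limma, beside 19.7% and 14.8% of all genes (0 and 2 at an unadjusted p under 0.05), namely CCN3 (log2 fold change -0.24, adjusted p = 0.0392) and CCN4 (-0.24, adjusted p = 0.0106). CCN4 was dim, below the median probe set, with means of 379 in control and 320 in treated arrays. The call of CCN3 was lost without control replicate 1 or 2 and without treated replicate 1 or 2 (adjusted p of 0.0869 to 0.124), and with the replicate block (0.0671). Outside these lists, the profiles most like that of CCN2 were INTS10, ATP6AP2 and FOXK2, and those most like CCN1 were NPC2, LGALS4 and MVP. Likeness was the mean absolute difference over the 6 arrays of log2 values relative to the control mean, which was 0.0173, 0.0180 and 0.0255 for the former and 0.00941, 0.00971 and 0.0125 for the latter. NPC2, LGALS4 and MVP had log2 fold changes of -0.22, -0.24 and -0.22. Their calls were lost without control replicate 1, 2 or 3, and also without treated replicate 2 for NPC2 and treated replicate 1 for MVP (adjusted p of 0.0517 to 0.114 over the 3 genes in limma). Those of NPC2 and MVP were also lost with the replicate block (0.0616 and 0.0537). INTS10, ATP6AP2 and FOXK2 had -0.43, -0.41 and -0.42, and their calls did not depend on any single array. All 6 genes were picked for their likeness to CCN1 or CCN2 on these same 6 arrays. Their fold changes and calls therefore follow from the choice and are not independent evidence.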

How the data were processed

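Per the deposited study's methods, dChip was used by the authors to read the arrays, scale them to each other on rank-invariant probes and summarise every probe set by a model-based expression index. The deposited table holds this intensity, linear and not logged, for 33252 probe sets and 6 arrays. The sources used here do not give the dChip version or its background correction, and no background value is listed. Intensities under 1 were raised to 1 before log2 was taken. The platform annotation gives 19460 probe sets 1 symbol, 1754 several and 12038 none. For each gene the single-symbol probe set with the highest mean log2 value over the 6 arrays was used. Fold changes had a standard error of 0.07 (median over genes, log2), and the number of arrays limits the precision. The comparison used limma (version 3.58.1, lmFit and eBayes, under R 4.3.3), 2-sided, with Benjamini-Hochberg adjustment across 18417 genes and a threshold of 0.05. Scripts were tested on simulated data.

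The 10 genes and the other lists, written from textbook knowledge, were chosen with earlier results of these data known. Named in the text are all 10 genes, up to 5 rises and 5 falls past the threshold per other list, 7 genes by role (TEAD2, TEAD3, LATS1, NF2, STK3, STK4 and SRF) and the 3 profiles most like CCN1 and CCN2. Marker genes were named after their values were seen. Differences between paralogs were tested by exact permutation over the arrays. Alternatives were quantile normalization, cyclic loess, a filter that drops the 30% dimmest genes, an offset of 50, the median over probe sets, eBayes with trend and robust options, a test gene by gene with unequal variances (the study names a t statistic only for scoring gene sets), the replicate number as a block and leaving out each replicate. Promoter sequences are those of RefSeq on GRCh38.p14.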

Additional observations from a re-analysis of the deposited data

How the results depend on the processing

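The counts of the 10 genes were 2 up-regulated and 3 down-regulated with both other normalizations, the offset, the median over probe sets and the intensity trend, and 3 and 3 without the 30% dimmest genes. With the unequal-variance test, members up-regulated numbered 0, Hippo genes down-regulated 2, TEAD and VGLL genes down-regulated 0, MRTF/SRF genes down-regulated 2, and all genes 1962 up-regulated and 1280 down-regulated (3631 and 2722 with limma). TEAD and VGLL genes down-regulated numbered 3 after quantile normalization and 2 after cyclic loess, against 1. Leaving out single replicates gave 3 to 7 Hippo genes down-regulated (6 with all arrays), 1 to 2 TEAD and VGLL genes down-regulated, 2 to 5 MRTF/SRF genes up-regulated (4 with all arrays) and 3 to 6 down-regulated (6 with all arrays). It gave 2 members up-regulated and 2 to 3 down-regulated. The sign of TEAD1 turned with cyclic loess (-0.00708), and that of AMOTL1 after quantile normalization (-0.0840), with cyclic loess (-0.0497), without control replicate 3 (-0.0607) and without treated replicate 1 (-0.0176), in a range of -0.0607 to 0.0560 when single arrays were left out, with neither gene past the threshold in any of these. Of 140 values of the 10 genes under the alternatives, 127 kept direction and side of the threshold, 7 lost the call and 1 gained it, and 5 turned sign. Of 560 values of the 40 other named genes, 494 kept both, 61 lost the call, 5 gained it and 0 turned sign. The unequal-variance test ended the calls of 3 of the 10 genes and of 17 of the 40 others, MOB1B, FAT4, CCN3, NPC2, LGALS4 and MVP among them (adjusted p of 0.0586 to 0.239 over the 17). The causes were not tested. With the replicate number as a block, members up-regulated numbered 2 and down-regulated 2, where CCN1 had an adjusted p of 0.0551 from limma, and 3521 of all genes rose and 2662 fell. Arrays of the same number correlated in their deviations from the group means across genes by 0.127, -0.0225 and 0.136. Treated replicate 1 correlated best with control replicate 2 (0.149), and treated replicates 2 and 3 both correlated best with control replicate 3 (0.0496 and 0.136). The numbers were thus not taken to pair the samples. All 4 paralog differences kept their sign under their alternatives. Probe sets that are dim could not be separated from background.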
